A study of Homo sapiens with 48 samples.

Results

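The genes described are the 9 AP-1 members FOS, FOSB, FOSL1, FOSL2, JUN, JUNB, JUND, ATF3 and BATF, taken by gene symbol from the deposited microarray values. They were measured by 12 of 45220 features, 4 for ATF3 and 1 for each other gene, and are 9 of 20399 gene symbols. The 48 samples came from THP-1 cells, an established human monocytic leukaemia line, which all groups shared after differentiation to macrophages with 50 nM of the phorbol ester PMA (a unit the labels write as nm). The exposed groups received 100 µg of a carbon material in 1 ml of RPMI medium for 6 or 24 h. By label the materials were rCNT, tCNT, Baytube and SES, besides Graphite and Fullerene. There were 3 samples in each of the 12 exposed groups, and the medium control held 6 samples at each time. All samples come from a single line, and the labels do not tell separate cultures from repeats of one, so the p-values measure the spread between these samples, which may be technical.

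AP-1 is a dimer of basic leucine zipper proteins that binds DNA at the TPA response element, named after the phorbol ester also called PMA. JUN proteins can pair with themselves, with FOS proteins or with members of the ATF and BATF families, and FOS proteins bind DNA stably only with a partner. In macrophages FOS, FOSB, JUN and ATF3 are known as early response genes of stress kinase and Toll-like receptor signalling, so that AP-1 is placed among the first transcriptional responses to particles.

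Of 9 genes, 8 had a promoter window in the RefSeq tables of build GRCh38.p14, and FOSL1 had none there. The 250 bases upstream of the start held at least 1 of the motifs searched in 6 of them. They are printed for 5, the early response genes and JUND, 5′ to 3′ on the gene's strand with the motif in capitals, and FOSL2, with the same motif as FOS, is left out. FOS lies at chr14:75278578-75278827 on the plus strand and FOSB at chr19:45467746-45467995 on the plus strand. JUND lies at chr19:18281623-18281872 on the minus strand, JUN at chr1:58784048-58784297 on the minus strand and ATF3 at chr1:212565157-212565406 on the plus strand.
FOS: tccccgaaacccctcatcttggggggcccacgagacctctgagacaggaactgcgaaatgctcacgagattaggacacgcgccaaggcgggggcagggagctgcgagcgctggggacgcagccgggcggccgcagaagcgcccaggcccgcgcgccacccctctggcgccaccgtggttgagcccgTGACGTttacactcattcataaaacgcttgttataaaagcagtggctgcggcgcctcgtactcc
FOSB: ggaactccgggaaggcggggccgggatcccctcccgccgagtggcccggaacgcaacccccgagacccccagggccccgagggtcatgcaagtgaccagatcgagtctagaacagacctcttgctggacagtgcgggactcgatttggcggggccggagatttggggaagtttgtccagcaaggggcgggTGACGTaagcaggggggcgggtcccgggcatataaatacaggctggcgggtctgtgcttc
JUND: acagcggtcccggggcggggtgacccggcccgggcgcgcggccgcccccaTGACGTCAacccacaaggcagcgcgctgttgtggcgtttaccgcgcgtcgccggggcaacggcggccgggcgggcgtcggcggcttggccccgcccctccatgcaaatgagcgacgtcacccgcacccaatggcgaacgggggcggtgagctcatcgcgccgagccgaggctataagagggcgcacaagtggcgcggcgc
JUN: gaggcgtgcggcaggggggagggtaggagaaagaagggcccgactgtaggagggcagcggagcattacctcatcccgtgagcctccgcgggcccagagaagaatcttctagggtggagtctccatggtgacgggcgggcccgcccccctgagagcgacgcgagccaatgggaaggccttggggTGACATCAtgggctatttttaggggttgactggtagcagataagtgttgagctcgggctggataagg
ATF3: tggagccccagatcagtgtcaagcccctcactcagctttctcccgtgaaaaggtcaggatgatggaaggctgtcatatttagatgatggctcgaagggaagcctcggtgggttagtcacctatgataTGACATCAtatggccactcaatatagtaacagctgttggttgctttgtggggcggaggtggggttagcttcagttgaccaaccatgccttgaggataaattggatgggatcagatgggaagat

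Capitals mark TGACGT, the core of the cyclic AMP response element, in FOS at 64 bases and in FOSB at 60 bases before the start. In JUND they mark the full palindrome TGACGTCA at 200 bases before the start. In JUN, at 67 bases, and in ATF3, at 123 bases before the start, they mark TGACATCA, a form that JUN and ATF2 dimers are known to bind. Both strands of 35116 windows were searched. The counts below are of AP-1 genes and the percentages are of windows, so their units differ. TGACGT, which TGACGTCA contains, was in 4 of 8 genes, FOS, FOSB, FOSL2 and JUND, and in 7.1% of all windows. TGACGTCA was in JUND alone among the 8, against 1.65% of windows, and TGACATCA in JUN and ATF3, against 2.37%. The TPA response element TGACTCA was in 0 of 8 genes and 4.2% of windows, and the CArG box, bound by serum response factor, in 0 of 8 and 1.16%. Bases farther than 250 before the start were not searched, so a gene without a match here may hold the motif elsewhere. A match describes letters in a window, and these data measured no binding.

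The cell line's own markers were high. Of 7 macrophage markers, 6 were measured, with means between 13.33 for ITGAM, a subunit of the complement receptor, and 15.71 for the gelatinase gene MMP9 on the deposited log2 scale. The promyelocyte gene MPO (6.61), EPCAM of epithelium (6.73), COL1A1 of fibroblasts (6.83) and CD3E of T cells (7.28) had means near the low end of the scale, set here at 7.70, the median of all feature means. The other members of these lists lay above it, with ELANE at 11.59 and AZU1 at 13.44 for promyelocytes, KRT8 at 8.91 for epithelium, PDGFRA at 9.32 for fibroblasts, and CD79A at 10.64 and GNLY at 11.30 for lymphocytes. Their part in the results was not tested.

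Labels and columns were out of step. Columns 20 or 40 places apart in the deposited table shared marks of the array surface in 46 of 48 samples, with a median surface correlation of 0.854 in 36 such pairs, while 38 pairs on one labelled array had a median of -0.077. Over all genes the first kind of pair correlated with a median r of 0.594 and all other pairs with -0.061. No sample was moved to another group. Values are therefore given by column, with columns 20 or 40 apart called a column set, and by label, as samples so labelled. The 12 samples in columns 1 to 4, 21 to 24 and 41 to 44 were all labelled exposed and included 0 controls, and the 8 in columns 13 to 16 and 33 to 36 included 1 control. In RNA from whole cultures, fewer cells of a type and less RNA per cell cannot be told apart.

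Within the FOS family, FOS itself, the archetypal early response gene, was well above the low end in every sample. Its deposited log2 value was 12.09 ± 0.46 (SD, n = 48), between 10.90 in column 45 and 12.90 in column 3. FOSB, a close relative of FOS, was near the low end at 7.18 ± 0.41 (SD, n = 48), and 45 of 48 samples lay below 7.70. Its 3 values above that line were 8.89 in column 3, 8.32 in column 20 and 7.81 in column 32. Columns 3 and 20 are the first and second samples labelled tCNT at 6 h. No fold change is given for FOSB because its mean lies near the low end.

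FOSL1, which encodes FRA1, a FOS protein without a strong transactivation domain, spanned 6.66 to 12.49 with a mean of 9.57 ± 1.39 (SD, n = 48). In columns 1 to 4, 21 to 24 and 41 to 44 it stood at 11.52 ± 0.75 (SD, n = 12), between 9.87 and 12.49, and in the other columns at 8.91 ± 0.81 (SD, n = 36), between 6.66 and 9.96. The ranges overlapped only between 9.87 and 9.96. Its lowest values, 6.66 and 6.89, were in columns 36 and 16, which share a set. FOSL2, which encodes FRA2, had a narrower range, 6.71 to 9.37, with a mean of 8.17 ± 0.55 (SD, n = 48), and 8 of its samples were below 7.70. Columns 16 and 36 again held its lowest values, 6.71 and 6.85.

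**Figure D1:**
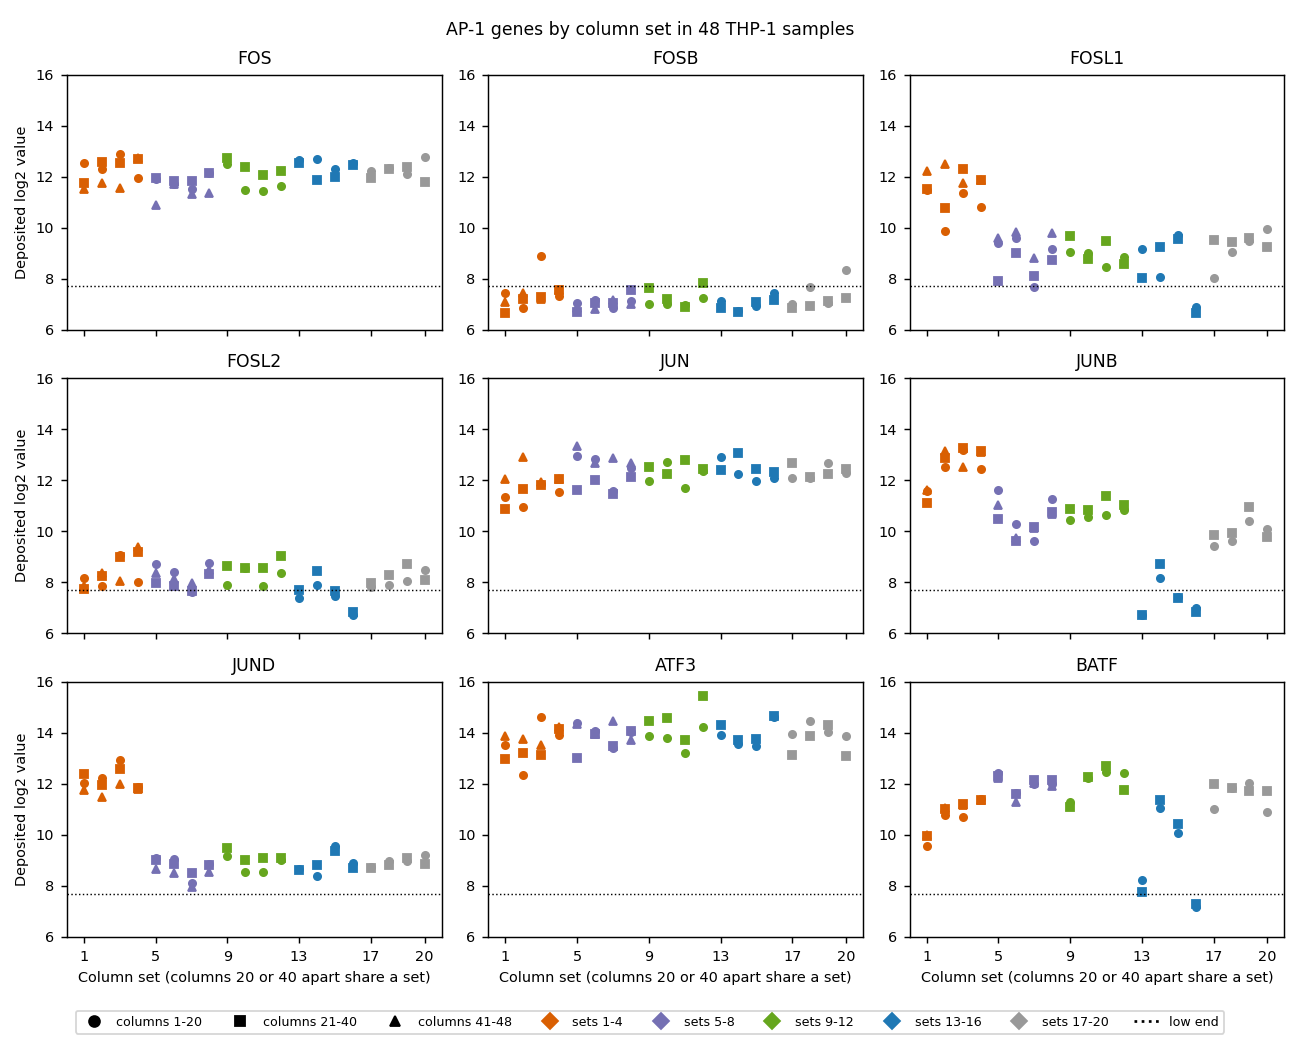
Deposited log2 value of each of the 9 genes (vertical axis) in each of 48 samples against the column set (horizontal axis), with 1 point per sample. Shape gives the block of columns, colour the run of 4 sets, and the dotted line the low end at 7.70; JUND is at 11.48 or above in sets 1 to 4 and at 9.56 or below in all others, and JUNB is lowest in sets 13 to 16.

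Among the JUN genes, JUN, the partner of FOS in the classical dimer, was measured at 12.22 ± 0.53 (SD, n = 48), between 10.86 in column 21 and 13.33 in column 45. Column 45 thus held the highest JUN and the lowest FOS. JUND, the JUN gene with the steadiest expression in most cells, formed separate groups. In columns 1 to 4, 21 to 24 and 41 to 44 it was at 12.07 ± 0.40 (SD, n = 12), from 11.48 to 12.92, and in the remaining columns at 8.84 ± 0.34 (SD, n = 36), from 7.95 to 9.56. Of all genes, 2.38% were likewise higher in each of these 12 columns than in every other, and 0.294% were lower in each; none of the other 8 AP-1 genes was either. JUN lay the other way, at 11.75 ± 0.55 (SD, n = 12) in the 12 columns and 12.37 ± 0.43 (SD, n = 36) in the others, with overlapping ranges.

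JUNB, which opposes some actions of JUN on growth genes, had the widest range of the 9 genes' main features, 6.71 to 13.28, with a mean of 10.44 ± 1.77 (SD, n = 48). In columns 13 to 16 and 33 to 36 it stood at 7.37 ± 0.73 (SD, n = 8), with values of 6.72, 8.16, 7.42, 6.99, 6.71, 8.70, 7.40 and 6.82 in that order. All other columns were between 9.43 and 13.28, with a mean of 11.06 ± 1.16 (SD, n = 40), so the groups of columns did not overlap. Of all genes, 0.402% were likewise lower in each of the 8 columns than in every other, and 0.132% were higher. JUNB was also high in columns 1 to 4, 21 to 24 and 41 to 44, at 12.54 ± 0.74 (SD, n = 12), against 9.75 ± 1.43 (SD, n = 36) in the rest, with overlap.

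BATF encodes a basic leucine zipper protein with no transactivation domain that pairs with JUN proteins in lymphocytes and dendritic cells. Its mean was 11.17 ± 1.30 (SD, n = 48), and its range was 7.18 to 12.71. Columns 13, 33, 16 and 36, which form 2 sets, held 8.22, 7.77, 7.18 and 7.30, and the other 44 samples lay between 9.57 and 12.71. These 4 columns were picked by the BATF values, and how many of all genes were likewise low there was not counted. Over the 48 samples 159 genes had an r above 0.9 with BATF. ATF3, a stress-induced repressor and activator, was measured by 4 features. The brightest, feature 790, represented the gene at 13.88 ± 0.55 (SD, n = 48), between 12.36 in column 2 and 15.46 in column 32. That value was the highest of the 9 genes, below the top of the scale at 16.00.

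The 4 ATF3 features did not follow each other closely. Features 790 and 4961 correlated with r = 0.58 over 48 samples, 4961 and 18893 with 0.44, and 790 and 18893 with 0.28. Feature 27243, with a mean of 11.08 and a range of 6.64 to 13.59, correlated with the other 3 at only -0.08 to 0.13. Its r with BATF was 0.87, with FOSL2 0.72 and with JUNB 0.69. In columns 13, 33, 16 and 36, where BATF was lowest, feature 27243 was at 6.80, 7.33, 6.64 and 7.06. In the inferred layout of the array it lay 7 rows and 1 spot from the BATF feature. The surface component of these 4 samples was -1.38 to -1.17 there, while the feature itself deviated from its median by -4.72 to -4.03. At the BATF feature the surface component was -0.75 to -0.58 and the deviation -4.22 to -3.18. After removal of the surface component the r of these features was 0.78, and the part of the array surface in the remaining difference was not tested. These correlations are descriptions, since columns of one set are not independent. The ATF3 results below rest on feature 790.

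**Figure D2:**
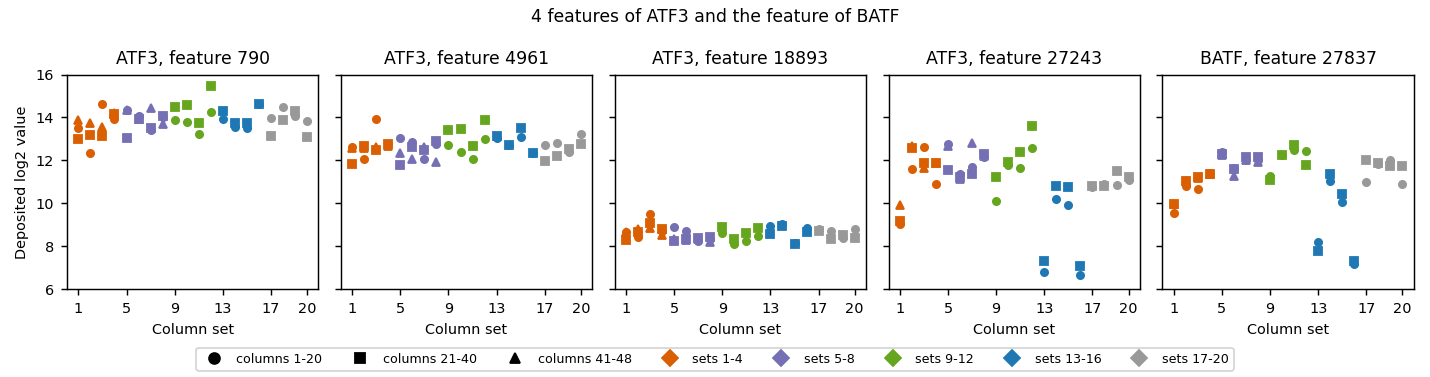
Deposited log2 value (vertical axis) of the 4 ATF3 features and of the BATF feature against the column set (horizontal axis), 1 point per sample, shape for the block of columns and colour for the run of sets. Feature 27243 falls to between 6.64 and 7.33 in sets 13 and 16, as the BATF feature does to between 7.18 and 8.22, whereas the other ATF3 features do not drop there.

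The comparison of each material with the control of the same time asked which genes the materials changed. None of the 9 genes passed an adjusted p of 0.05 in any of the 12 comparisons by limma, fitted to all 48 samples with dye as a term and adjusted by Benjamini-Hochberg over 20399 genes. Over all genes, 91 passed for Fullerene at 6 h (0.446%) and 0 (0%) in each of the other 11. At an unadjusted p under 0.05, 3 of the 9 passed for Graphite at 24 h (15.7% of all genes), 2 for Fullerene at 6 h (11.2%), 1 for tCNT at 6 h (6.27%), 1 for rCNT at 24 h (4.5%) and 0 in the other comparisons. Over all genes the SE of a log2 difference had a median of 0.262, while that of JUND was 0.97 and that of JUNB 1.35.

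In the samples labelled Fullerene at 6 h, FOSL1 was at 9.72, 12.31 and 11.75, against 6.66 to 9.66 with a median of 8.63 in the 6 controls. All 3 exposed values lay above all control values. The log2 difference was 2.83 ± 0.94 (SE), with an adjusted p of 0.229 (limma). JUND was at 9.56, 12.59 and 11.99 in the same samples and at 7.95 to 9.48 with a median of 8.64 in the controls, again without overlap. Its log2 difference was 2.72 ± 0.97 (SE), with an adjusted p of 0.278 (limma). How many of all genes were likewise apart from the controls was not counted, and 11.2% had an unadjusted p under 0.05 (limma). JUNB was at 7.42, 13.28 and 12.50 against 6.82 to 10.87 with a median of 10.35, so the groups overlapped. The log2 difference of JUNB was 1.33 ± 1.35 (SE), with an adjusted p of 0.783 (limma). Replicates 2 and 3 of this group are columns 23 and 43, among the columns with high JUND, FOSL1 and JUNB, and replicate 1 is column 15, among those with low JUNB. With runs of 4 columns as a term and the column block in place of dye, the differences were 1.47 for FOSL1, 0.71 for JUND and 0.65 for JUNB. With column sets as a random block, again with the column block in place of dye, they were 1.83, 1.37 and 0.33. Leaving out each sample in turn moved that of JUNB between 0.39, without replicate 3, and 3.17, without replicate 1. Without columns 1 to 4, 21 to 24 and 41 to 44, which leaves column 15 as the only Fullerene sample at 6 h, they were 1.29, 0.93 and -2.46. Without columns 13 to 16 and 33 to 36, FOSL1 at 3.20 (adjusted p = 0.0441, limma) and JUND at 3.98 (adjusted p = 0.0293, limma) passed, beside 5.91% of all genes, and the fold then came from columns 23 and 43 alone.

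**Figure D3:**
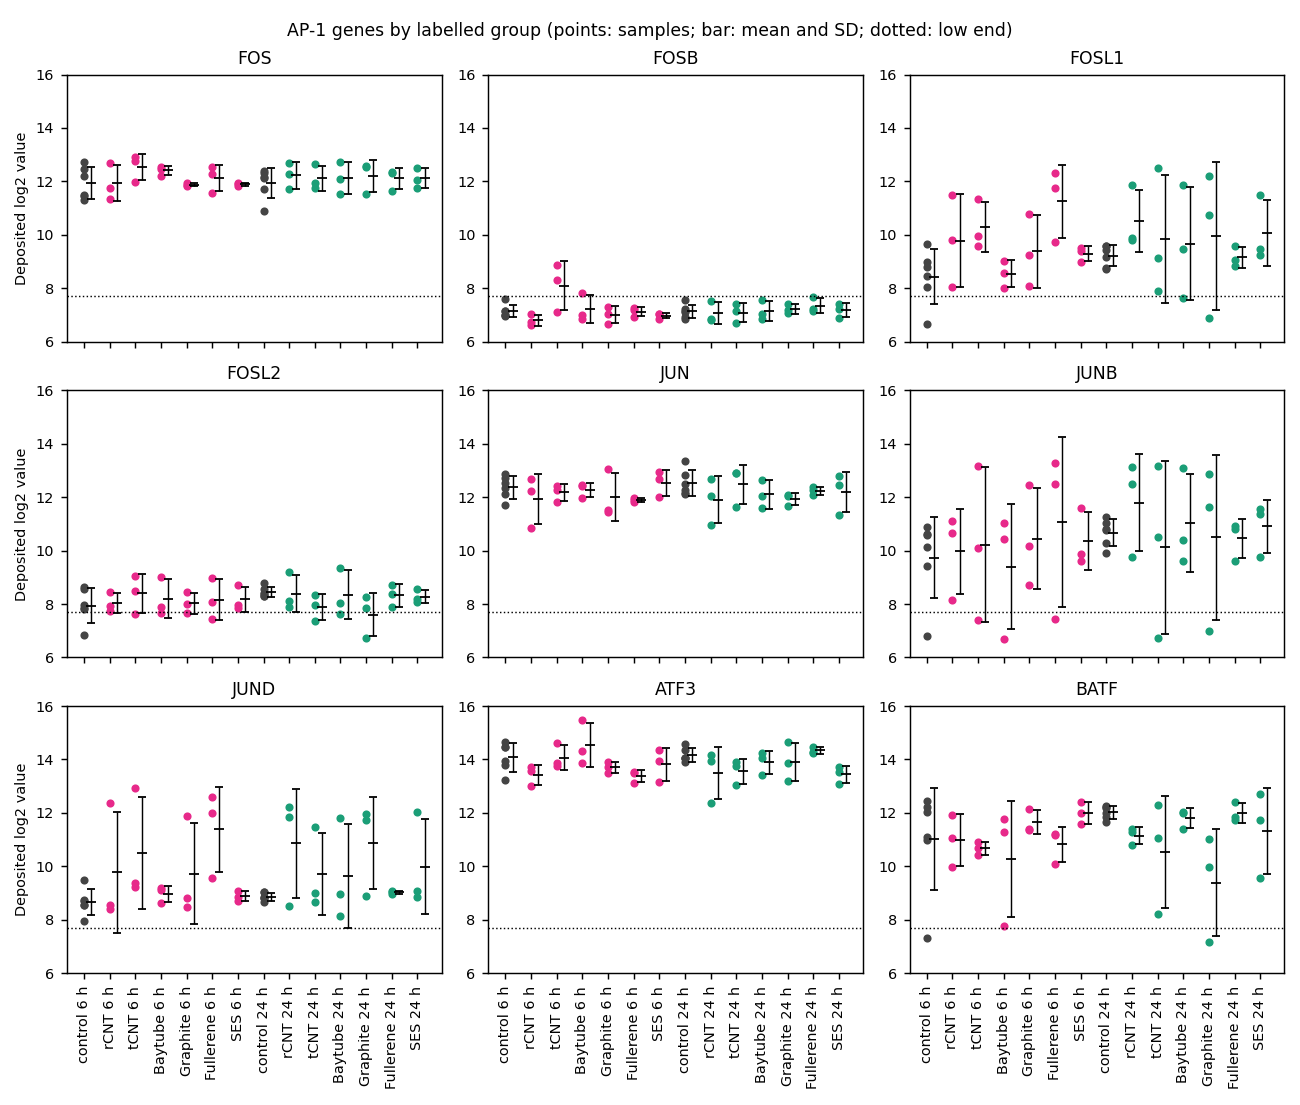
Deposited log2 value (vertical axis) of the 9 genes by labelled group (horizontal axis), with each sample as a point and the mean with SD as a bar beside it; control groups are grey, 6 h exposures pink and 24 h exposures green, and the dotted line is the low end at 7.70. The Fullerene 6 h samples of FOSL1 and JUND lie above all 6 h controls, and 2 of 3 tCNT 6 h samples of FOSB lie above all other samples. Such separation was not counted over all genes.

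Graphite at 24 h showed the lowest BATF group. Its samples were at 7.18, 11.02 and 9.98, and the 24 h controls were between 11.64 and 12.26 with a median of 12.08, without overlap. The log2 difference was -2.63 ± 0.86 (SE), with an adjusted p of 0.185 (limma). FOSL2 was at 6.71, 8.26 and 7.84 against 8.30 to 8.77 with a median of 8.40, also without overlap, and differed by -0.85 ± 0.40 (SE) with an adjusted p of 0.301 (limma). These samples are columns 16, 22 and 41. The share of all genes likewise without overlap was not counted, and 15.7% had an unadjusted p under 0.05 (limma). JUND was 2.00 ± 0.97 (SE) higher with an adjusted p of 0.312 (limma), from 8.90, 11.96 and 11.75 against 8.66 to 9.04 in the controls. With runs of 4 columns as a term and the column block in place of dye, BATF differed by -0.96 and FOSL2 by -0.90, and with column sets as a random block by -0.74 and -0.34. Without replicate 1, column 16, BATF differed by -1.56 and FOSL2 by -0.44. Without columns 1 to 4, 21 to 24 and 41 to 44, column 16 was the only Graphite sample left at 24 h, assumed to vary like the other groups, and 3 of the 9 genes passed beside 17.9% of all genes. They were BATF at -5.04 (adjusted p = 0.0168, limma), FOSL2 at -1.78 (adjusted p = 0.0255, limma) and FOSL1 at -2.33 (adjusted p = 0.049, limma). With all 3 samples, at 6.89, 10.76 and 12.22, FOSL1 differed the other way, by 0.74, and did not pass.

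In the samples labelled tCNT at 6 h, FOS was at 12.90, 12.75 and 11.97, against 11.31 to 12.74 with a median of 11.84 in the controls, and the groups overlapped. The log2 difference was 0.60 ± 0.33 (SE), with an adjusted p of 0.813 (limma). FOSB was at 8.89, 8.32 and 7.10 against 6.98 to 7.62, with an unadjusted p of 0.00051 and an adjusted p of 0.55 (limma), and the third sample lay within the controls. When the third sample, column 35, was left out, FOSB passed beside 0.113% of all genes. It also passed without columns 13 to 16 and 33 to 36, which include column 35, beside 0.196% of all genes. The second ATF3 feature, 4961, was at 13.93, 13.22 and 13.51 against 12.07 to 13.40, with overlap. Its log2 difference was 0.96 ± 0.28 (SE), with an adjusted p of 0.578 (limma). The ATF3 main feature was at 14.61, 13.86 and 13.74 against 13.21 to 14.64 in the controls, a log2 difference of -0.02. Features 18893 and 27243 differed by 0.28 and 0.62. Over the 9 genes, 6 of 9 log2 differences were above 0 for tCNT at 6 h, with a median of 0.49, beside a median of 0.00 over all genes.

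JUN and JUND for rCNT at 24 h and ATF3 for SES at 24 h gave the remaining differences. JUN was at 10.97, 12.06 and 12.69 in the samples labelled rCNT at 24 h and at 12.12 to 13.33 with a median of 12.38 in the controls, with overlap. Its log2 difference of -0.63 ± 0.36 (SE) had an adjusted p of 0.91 (limma). These samples are columns 2, 24 and 46, and columns 2 and 24 are among those with low JUN and high JUND. Without columns 1 to 4, 21 to 24 and 41 to 44 the difference of JUN was -0.04, from column 46 alone. JUND in the same rCNT group was at 12.22, 11.86 and 8.51, and differed by 1.99 ± 0.97 (SE) with an adjusted p of 0.91 (limma). ATF3 was at 13.52, 13.72 and 13.10 in the samples labelled SES at 24 h, all below the controls at 13.89 to 14.60 with a median of 14.07. Its log2 difference was -0.72 ± 0.36 (SE), with an adjusted p of 1.00 (limma). How many of all genes lay apart from the controls here was not counted, and 2.97% had an unadjusted p under 0.05 (limma). The other ATF3 features, 4961, 18893 and 27243, differed by -0.09, 0.13 and -0.98 in the same comparison. The difference of ATF3 was -0.42 for the mean of its features, -0.45 with the title number as a block in place of dye and -0.21 with column sets as a random block. Leaving out each sample in turn moved the difference of JUN between -0.89 and -0.19, the last without column 2, that of ATF3 between -0.85 and -0.52, and that of FOS for tCNT at 6 h between 0.43 and 0.79.

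The controls at 24 h and 6 h were compared for change with time in medium. FOSL1 was at 8.74 to 9.60 with a median of 9.31 at 24 h and at 6.66 to 9.66 with a median of 8.63 at 6 h. ATF3 was at 14.17 ± 0.25 (SD, n = 6) at 24 h and 14.09 ± 0.54 (SD, n = 6) at 6 h, and FOS at 11.93 ± 0.56 (SD, n = 6) and 11.94 ± 0.61 (SD, n = 6). None of the 9 genes passed (0% of all genes), and 0 of 9 did so at an unadjusted p under 0.05 (1.14% of all genes). Against the controls of the same time, all exposed samples together gave 0 passing genes of 9 at 6 h (0% of all genes), where FOSL1 differed by 1.32 ± 0.63 (SE) with an adjusted p of 0.966 (limma). At 24 h they gave 0 of 9 passing as well (0% of all genes). The differences between the 24 h and the 6 h effects of a material were 0 of 9 passing for each of 6 materials (0% of all genes). At an unadjusted p under 0.05 there were FOSB for tCNT (2.97% of all genes), BATF for Graphite at -3.26 ± 1.21 (SE, 9.12% of all genes) and FOSL1 for Fullerene at -2.89 ± 1.33 (SE, 4.3% of all genes).

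Ordered by level, the 14 labelled groups overlapped widely. FOS was highest in tCNT at 6 h (12.54 ± 0.50, SD, n = 3) and lowest in Graphite at 6 h (11.87 ± 0.06, SD, n = 3). JUN was highest in SES at 6 h (12.54 ± 0.48, SD, n = 3) and lowest in rCNT at 24 h (11.91 ± 0.87, SD, n = 3). ATF3 ran from 14.55 ± 0.82 (SD, n = 3) in Baytube at 6 h to 13.39 ± 0.22 (SD, n = 3) in Fullerene at 6 h. JUNB ran from 11.80 ± 1.80 (SD, n = 3) in rCNT at 24 h to 9.39 ± 2.34 (SD, n = 3) in Baytube at 6 h. The 24 h control had the highest mean of FOSL2 (8.45 ± 0.18, SD, n = 6) and of BATF (12.03 ± 0.24, SD, n = 6), and Graphite at 24 h had the lowest of both. FOSL1 and JUND were highest in Fullerene at 6 h and lowest in the 6 h control. Of 13 pairs of neighbours in each order, 1 pair of FOSL1 and 0 of every other gene were apart by more than the larger SD of the pair.

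A single test over the 14 labelled groups gave 0 of 9 genes past an adjusted p of 0.05 by limma, beside 0.0196% of all genes, and FOSB alone had an unadjusted p under 0.05, beside 2.77% of all genes. The same kind of test over the 20 column sets gave 6 of 9 genes, namely FOSL1, FOSL2, JUN, JUNB, JUND and BATF, beside 92% of all genes. FOS (adjusted p = 0.134, limma), FOSB (0.175) and ATF3 (0.0589) did not pass. Over the 3 blocks of columns, 1 to 20, 21 to 40 and 41 to 48, FOS, FOSL1, JUN and JUND passed, beside 41.3% of all genes. For column sets the share of AP-1 genes that passed was thus below that of all genes, a difference that was not tested.

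As a share of the total variance, column sets held 98.1% for JUND, 97.8% for JUNB, 97.7% for BATF, 86.6% for FOSL1 and 71.9% for FOSL2. They held 52.8% for ATF3, 48.5% for FOSB, 47.6% for FOS and 40.7% for JUN. The median was 71.9% over the 9 genes and 80.02% over all genes, and the degrees of freedom alone give 40.4%. Labelled groups held 10.9% for JUNB to 43.3% for FOSB, with a median of 29.8% over the 9 genes and 24.2% over all genes, where the degrees of freedom alone give 27.7%. The median absolute difference of JUNB was 0.48 between samples of one column set and 1.28 between samples of one labelled group, and that of BATF was 0.18 and 0.62. FOS and JUN differed little in this respect, with 0.44 and 0.58 for FOS and 0.50 and 0.46 for JUN.

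**Figure D4:**
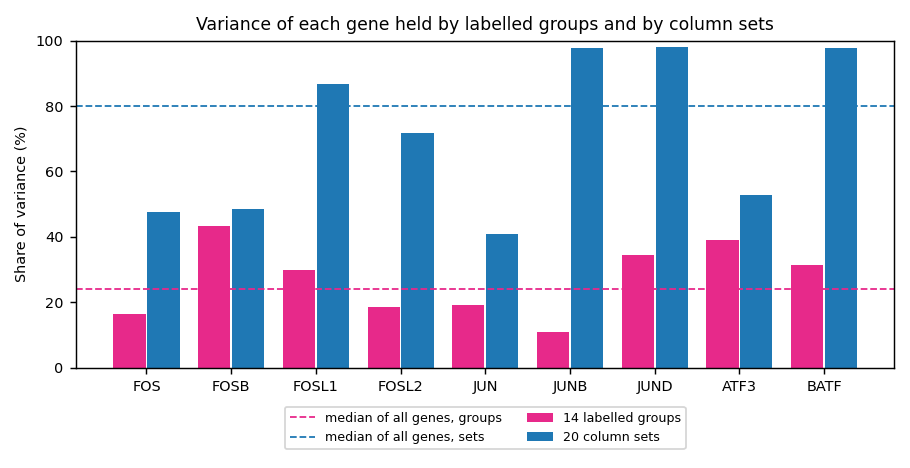
Share of each gene's total variance over 48 samples, in percent (vertical axis), held by the 14 labelled groups and by the 20 column sets, with bars from 0 and dashed lines at the medians of all genes (24.2% and 80.02%). Column sets hold more than labelled groups for each of the 9 genes, from 48.5% against 43.3% for FOSB to 97.8% against 10.9% for JUNB. The degrees of freedom alone give 40.4% for sets and 27.7% for groups, and the sets hold 40.7% for JUN.

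Co-variation between the genes was examined without the labels. Over columns 1 to 20, which hold each column set once, 10 of 36 pairs passed a two-sided permutation test of Pearson's r at an adjusted p of 0.05 over the 36 pairs, 8 of them positive, and 14 passed unadjusted. Columns 1 to 4 stand apart for several genes, and in columns 5 to 20 the pairs that passed were 4, all among the 10. The share of pairs of other genes that would pass likewise was not counted, so these counts are not particular to the AP-1 genes. FOSL2 and JUNB had r = 0.74 (rho = 0.66) over columns 1 to 20, with a permutation p of 0.00014 for r and of 0.00213 for rho, adjusted 0.00252 and 0.0192. Without the 2 samples farthest from the median of FOSL2 their r was 0.59, and in columns 5 to 20 it was 0.84 with an adjusted permutation p of 0.00072. FOS and BATF ran opposite, with r = -0.63 and rho = -0.81 (adjusted permutation p = 0.0196 and 0.00108), r = -0.58 without the 2 farthest samples and -0.64 in columns 5 to 20 (adjusted permutation p = 0.0389).

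The remaining pairs of the 4 also involved BATF. JUNB and BATF had r = 0.55 and rho = 0.32 (adjusted permutation p = 0.0422 and 0.342), r = 0.88 in columns 5 to 20 (adjusted permutation p = 0.00036), and r = 0.07 without the 2 samples farthest from the median of JUNB, so over columns 1 to 20 the relation rests on those samples. FOSL2 and BATF had r = 0.62 and rho = 0.37 (adjusted permutation p = 0.022 and 0.287), r = 0.77 in columns 5 to 20 (adjusted permutation p = 0.0042), and r = 0.54 without the 2 farthest. With the surface component removed, each of the 3 pairs of BATF lost its call over columns 1 to 20, at -0.27 with FOS (adjusted permutation p = 0.386), 0.44 with JUNB (adjusted permutation p = 0.112) and 0.36 with FOSL2 (adjusted permutation p = 0.228). Within columns 21 to 40 FOS and BATF had r = -0.31 (adjusted permutation p = 0.337). FOSL1 and JUND had the highest r, 0.80, with rho = 0.84 (permutation p = 1e-05 for r, the smallest these permutations can give, adjusted 0.00036, and adjusted 0.00072 for rho), and r = 0.61 in columns 5 to 20 with an adjusted permutation p of 0.0752. JUNB and JUND had r = 0.64 over columns 1 to 20 and 0.04 in columns 5 to 20, and JUN and JUND -0.61 and 0.19. Columns of one run resemble each other, so the 20 columns are not fully independent samples. In deviations from the mean of each run of 4 columns, 0 pairs passed an adjusted permutation p of 0.05.

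When the means of column sets and blocks were removed, samples of one set could be compared with each other, and the pattern among the genes was another. As a description over 48 samples with no test, 30 of 36 pairs then had r above 0 with a median of 0.40, against 23 of 36 and 0.19 before. FOSL2 and JUNB reached 0.84, FOSB and ATF3 0.81, FOSL1 and JUN 0.79, FOSL1 and JUNB 0.76 and JUN and JUNB 0.73. JUN and FOSL1 had been at -0.16, and JUN and JUNB at -0.25, before the removal. FOS and FOSB, neighbours in the family, stood at 0.56, and FOS and JUN, the classical pair, at -0.05. BATF correlated below 0 with FOS (-0.50), ATF3 (-0.43), FOSB (-0.41) and FOSL2 (-0.30), and above 0 with FOSL1 (0.35), JUN (0.31) and JUNB (0.02). For FOSL2 the median r was 0.55 with the other 8 genes and -0.03 with the 11658 other genes above the low end, and 9.82% of those genes had an r above 0.5. For JUNB the medians were 0.50 and 0.03, for ATF3 0.47 and -0.04, for FOSB 0.42 and -0.04 and for FOS 0.41 and -0.05. They were 0.41 and 0.08 for JUN, 0.37 and -0.02 for JUND and 0.28 and 0.10 for FOSL1, while for BATF they were -0.27 and 0.08. The share of genes with an r above 0.5 was 22.89% for FOSL1, 15.85% for JUN, 14.16% for JUNB and 11.29% for BATF. High values were thus common over all genes for FOSL1, JUN and JUNB. For FOS, FOSB, JUND and ATF3 the share lay between 2.08% and 3.71%. JUND and BATF had an r above 0.5 with 0 of the other 8 genes. The part of array surface marks in these correlations was not tested.

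**Figure D5:**
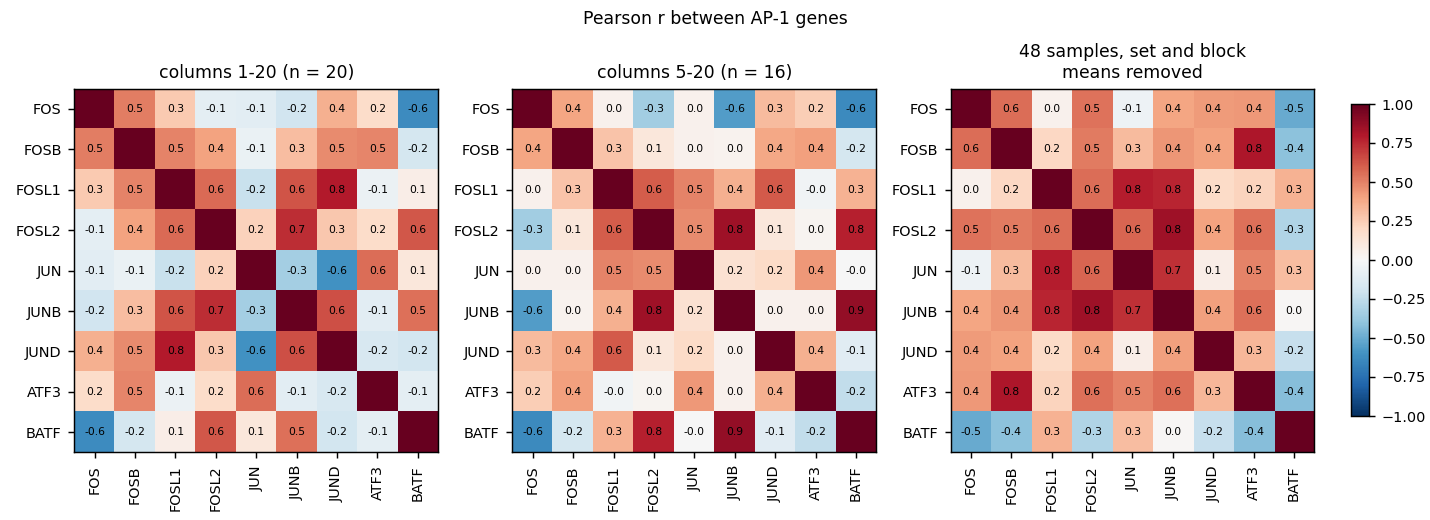
Pearson r of each pair of the 9 genes, with genes on both axes and r as colour and number, over columns 1 to 20 (n = 20), over columns 5 to 20 (n = 16) and over 48 samples with the means of column sets and blocks removed. The positive r of JUND with JUNB (0.64) is 0.04 in columns 5 to 20, and in the last panel 30 of 36 pairs are above 0, with BATF apart from the others.

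The genes most alike to each member over the 48 samples were sought among 11658 genes above the low end. For JUND they were CLPTM1, PARVB and DCTN1, each at r = 0.98, and 247 genes had an r above 0.9. BATF was matched by ZNF271P (0.98), PIGY (0.97) and CLPP (0.97), with 159 genes above 0.9, and JUNB by PLXNA3, REPIN1 and ITGA5, each at 0.96, with 21. FOSL1 had SAMD4B (0.95), PPP1R18 (0.93) and ZNF703 (0.92), with 11 genes above 0.9. FOSL2 had MSANTD3 (0.84), CHST7 (0.84) and CCL4 (0.83), the last a chemokine gene of activated macrophages. JUN had LOC100129527 (0.85), DOCK4 (0.80) and LONRF3 (0.79), and FOS had OAZ2 (0.80), TMEM176B (0.79) and SYTL3 (0.75). ATF3 had MALT1, a signalling protease gene (0.69), TAMALIN (0.68) and NR4A2, an early response nuclear receptor gene (0.67). With set and block means removed, the r with the first-named gene was 0.44 for JUND, 0.73 for BATF, 0.57 for JUNB and 0.76 for FOSL1. It was 0.88 for FOSL2, 0.82 for JUN, 0.75 for FOS and 0.79 for ATF3. The r of ATF3 with NR4A2 was then 0.80, that of FOSL2 with CCL4 0.88, and that of BATF with CLPP -0.12. NR4A2 had a mean of 7.78, close to the low end.

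Other genes of the pathway gave the same count in the labelled comparisons. Of 17 measured bZIP partners, 20 upstream kinases and factors, 9 feedback phosphatases, 22 textbook AP-1 targets and 14 other early genes, 0 passed in either direction in any comparison of a material with its control by limma over all genes. Over column sets 13, 20, 7, 7 and 9 of them passed, beside 92% of all genes. For tCNT at 6 h, the bZIP partners had 8 of 17 log2 differences above 0 with a median of -0.01 and the kinases and factors 10 of 20 with a median of 0.02, while 21 of 22 targets had log2 differences above 0, with a median of 0.56 and a range from -0.36 for MMP12, a macrophage elastase, to 1.93 for the cytokine gene TNF. The early genes had 11 of 14 above 0 with a median of 0.30, from -0.06 for KLF4 to 1.59 for NR4A3, and the phosphatases 7 of 9 with a median of 0.42, from -0.55 for DUSP5 to 1.54 for DUSP8. Over all genes the median of this comparison was 0.00, and the 3 lymphocyte markers were all above 0 with a median of 0.44. For tCNT at 24 h, 5 of 22 targets were above 0 with a median of -0.19, and 3 of 14 early genes with a median of -0.44. In the controls alone, 24 h against 6 h, 18 of 22 targets were above 0 with a median of 0.29. So were 11 of 14 early genes, with a median of 0.14. All exposed samples together had 18 of 22 targets above 0 at 6 h (median 0.22) and 8 of 22 at 24 h (median -0.10). The part of the controls in the tCNT values was not tested. For Fullerene at 6 h, 18 of 22 targets were above 0 with a median of 0.39, from -0.49 for PLAU to 2.63 for TGFB1, beside -0.01 over all genes. For Graphite at 24 h, 8 of 22 targets were above 0 with a median of -0.17, from -2.24 for PLAUR, the urokinase receptor gene, to 1.81 for TGFB1, and 5 of 14 early genes with a median of -0.20, from -3.12 for EGR1 to 1.30 for ZFP36. These comparisons share controls within a time, and their values are given side by side as descriptions.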

How the data were processed

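Microarrays measured the RNA of 48 THP-1 samples, with 3 dyes of 16 samples each, on 20 labelled arrays of 5 slides. The deposited values are log2 intensities per feature, from 6.05 to 16.00, with sample medians of 7.68 to 7.70. The submitters' processing notes name R 2.3 and limma; background correction and normalization are not given in the sources used here. Columns were matched to samples by name. The feature with the highest mean stood for each of 20399 genes; 35268 features had 1 symbol, 0 several and 9952 none here.

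The members and gene lists were chosen with earlier results of these data known. Tests used limma 3.58.1 in R 4.3.3, with 14 groups and dye as terms, 32 residual degrees of freedom and Benjamini-Hochberg adjustment within each comparison at 0.05. Correlations used 100000 permutations (scipy 1.17.1). Each gene's fold change is printed for the material with its largest absolute moderated t, besides those with an unadjusted p under 0.05. The ATF3 features for tCNT at 6 h and SES at 24 h and the 3 most alike genes by r are also printed. The number of arrays limits the precision. The scripts were tested on simulated data. The surface component is the median deviation over 11 by 11 spots in rows of 85. Same-letter samples deviated together with a mean r of 0.0034 (lowest -0.805) and same-number samples with -0.0012, so neither label was taken as a pairing. Other settings were another dye, slide, letter, number or column-set term, quantile normalization, median centring, a filter on dim genes, other feature rules, trended variance, own-group fits, 1 control code, the surface component removed and each sample left out. Runs of 4 columns as a term, their deviations, leaving out runs and removing set and block means were chosen after seeing the data.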

Additional observations from a re-analysis of the deposited data

Results flagged for a closer look

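Among the 18 groups of 6 controls (9 genes at 2 times), 3 had a sample far from the other 5, where chance gives about 5% of such groups. The share of such groups over all genes was not counted, so the 3 are not a result particular to the AP-1 genes. BATF in the fifth 6 h control sample, column 36, was at 7.30, with the nearest control at 11.00. JUNB in the same sample was at 6.82, with the nearest at 9.43. Column 16, of the same column set but labelled Graphite at 24 h, held 7.18 for BATF and 6.99 for JUNB. FOSB in the fourth 6 h control sample, column 29, was at 7.62, with the nearest at 7.15, and all 6 values lay below the low end of 7.70. None of the 9 genes gave a difference between the 24 h and 6 h effects of a material that passed an adjusted p of 0.05 in 54 tests by limma.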

How the results depend on the processing

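The reported count of the 9 genes was 0 for every labelled comparison and for the 14 groups, beside 0% to 0.446% of all genes. A count there could hold only by being 0 again. Counts of the 9 genes passing were within 1.5 times the reported count in 672 recomputed cases and moved in 5. Without columns 1 to 4, 21 to 24 and 41 to 44 they were 3 for Graphite at 24 h and 1, BATF, for its 24 h effect minus its 6 h effect (13.6% of all genes). Without columns 13 to 16 and 33 to 36 they were 1 (FOSB) for tCNT at 6 h and 2 for Fullerene at 6 h. Leaving out each sample in turn gave 0 to 1 for tCNT at 6 h, the 1 being FOSB without the third tCNT sample. These fits hold fewer samples, and the cause was not tested. The 8 fold changes chosen by largest t, 1 for each gene but FOSB, kept direction and side of the threshold in 211 cases, with the other printed differences not among them; FOSL2 (-1.78), BATF (-5.04), FOSL1 (3.20) and JUND (3.98) came to pass when those columns were left out, and JUNB for Fullerene at 6 h turned to -2.46. The fit with the letter or the title number as a replicate block gave 0 of the 9 genes in each comparison and changed no call. Pairs of genes passing, 10 as reported, were 4 without columns 1 to 4, 21 to 24 and 41 to 44, 4 with Spearman's rho, 0 within columns 41 to 48 (n = 8) and 0 in deviations from the runs of 4. JUN with JUND turned from -0.61 to 0.19 without the first-named columns and to 0.28 in those deviations, and JUNB with BATF from 0.55 to -0.38 within columns 41 to 48; in all, 40 correlations held their side, 37 did not and 3 reversed. With column sets as a random block the consensus correlation was 0.733. Of 48 samples, 45 of FOSB, 8 of FOSL2, 6 of JUNB, 3 of FOSL1 and 2 of BATF lie below 7.70, where signal limits what can be measured. Column 16, labelled Graphite at 24 h, is among them, with 7.18 for BATF, 6.89 for FOSL1, 6.71 for FOSL2 and 6.99 for JUNB.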
